A study of Zea mays with 4 samples.

Results

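Cytokinin response regulators are the last step of a phosphorelay that carries the cytokinin signal from a receptor kinase at the membrane to the nucleus. Receptor histidine kinases pass a phosphate to phosphotransfer proteins, and these pass it to the response regulators. Type-B response regulators bind DNA and switch on cytokinin target genes, among them the type-A response regulators, which in Arabidopsis dampen the signal again. Transcripts of type-A genes are therefore widely used as a readout of cytokinin signalling, and some maize type-A genes are also known to respond to nitrate supply.

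The members were probe sets of the Affymetrix Maize Genome array whose single annotated gene carries a symbol or synonym of the form RR and a number, with or without the prefix Zm. The rule found 9 genes, RR3 to RR11, with 10 probe sets, of 1108 genes that a probe set names singly and 17621 probe sets other than controls. RR3, RR4, RR5, RR6, RR7 and RR11 are counted here with type A (6 genes, 7 probe sets) and RR8, RR9 and RR10 with type B (3 genes, 3 probe sets). This grouping comes from background knowledge, not from these data. The gene identifier of RR5 (LOC541631) was not found in the reference table, which gives the synonym RR5 to another gene. Its name is that of the older array annotation, and its place in type A rests on that name.

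Total RNA of 2 samples of the inbred line F98902, labelled as having bad digestibility, and of 2 samples of the inbred line Cm484, labelled as having good digestibility, was hybridised to 1 array each. Plants of both lines were untreated and kept under glass, with days of 14 h at 22 °C and nights at 20 °C. They were taken in flower, 24 h ahead of ovulation. The question was how transcript levels differ between the 2 lines. Each kind of digestibility is represented by 1 line, so digestibility and every other difference between the lines cannot be told apart. Nothing in the labels tells whether the 2 samples of a line were separate plants, so p-values speak only of the spread among these samples, possibly a technical one.

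The labels leave the tissue open, with stem in the growth protocol but root in that for RNA extraction. Of 20 probe sets of green tissue genes, 16 were tested as described below, and these stand for 11 genes. Of the 16, 10 were called as higher in F98902 and 1 as higher in Cm484, against 17.7% and 17.1% of all probe sets tested. Several of the 10 belong to the same gene, C4ppdkZm1 or CP24. Another C4ppdkZm1 probe set, detected on all arrays, differed by 0.01 (log2) and was not called. The summed linear signal of the 20 probe sets was 61681 and 59365 on the F98902 arrays, against 31532 and 36951 on the Cm484 arrays. The root-preferential gene zrp4 (LOC542706) was the 1 root marker matched. It read 2.34 and 2.07 (log2) in F98902, below the detection value, against 8.83 and 8.59 in Cm484. In bulk samples, fewer cells of a type and less RNA per cell cannot be told apart. The part of these tissue markers in the results below was not tested.

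All values are deposited log2 signals, and a probe set counts as detected on an array at a value of 5 or more. Between 54.8% and 55.2% of probe sets were detected on each array. Differences are F98902 minus Cm484 from a limma fit over the 10131 probe sets detected on at least 2 of the 4 arrays, with standard errors (SE) from that fit. A probe set was called where its Benjamini-Hochberg adjusted p was under 0.05. By this rule 34.9% of all probe sets tested were called, 17.7% as higher in F98902 and 17.1% as higher in Cm484.

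Of the response regulators tested, RR6, RR11 and RR4 were higher in F98902, RR7 was higher in Cm484, and the others were not called. Of 10 probe sets, 8 passed the filter, and 4 of these 8 were called. The count was 2 of 8 without Cm484 replicate 1 or without Cm484 replicate 2, and 2 of 10 with no filter on low values. RR4 passed the filter through F98902 alone, which favours a call in that direction. The measured differences of all 4 were of 2-fold or more, a size at which 22.7% of all probe sets tested were called. For RR4 this size is not exact, because a Cm484 value lay under the detection value. All 4 calls fell among the 5 type-A probe sets tested, and 0 of the 3 type-B probe sets was called by limma, with 0 also at an unadjusted p under 0.05. With so few members, a share of 50% called against 34.9% of all probe sets is given as a description. The median difference over the 8 was 0.05 (log2), against -0.02 over all probe sets tested, and their median absolute difference was 0.73, against 0.44.

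**Figure D1:**
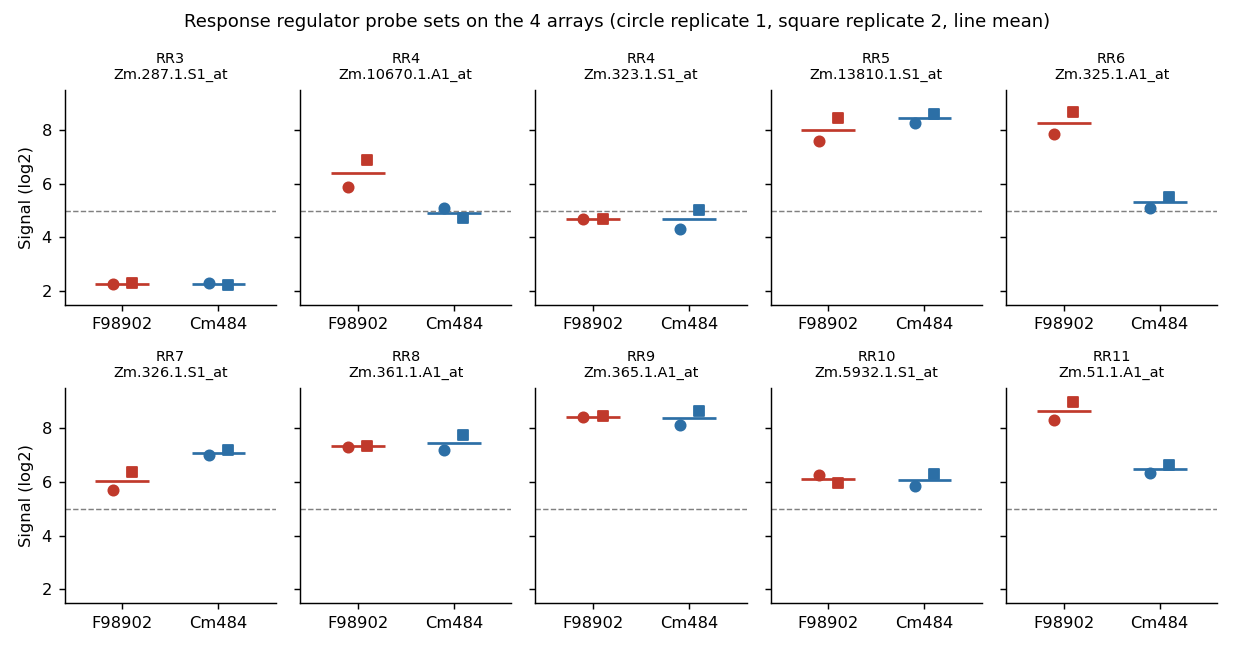
Signal (log2, vertical axis) of the 10 response regulator probe sets on each array. Circles are replicate 1, squares replicate 2, short lines the mean of each line (n = 2), and the dashed line the detection value of 5. RR6 and RR11 stand apart most widely, with F98902 arrays between 7.83 and 8.96 and Cm484 arrays between 5.10 and 6.65.

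RR6 (LOC541632, probe set Zm.325.1.A1_at), a type-A regulator, showed the widest difference of the family. It read 7.83 and 8.66 on the F98902 arrays, against 5.10 and 5.50 on the Cm484 arrays. Both F98902 arrays lay above both Cm484 arrays with a gap of 2.33 between the nearest values, while the largest gap between replicates was 0.82. Its mean was 8.25 ± 0.58 (SD, n = 2) in F98902 and 5.30 ± 0.29 (SD, n = 2) in Cm484. The difference of 2.95 ± 0.32 (SE) corresponds to 7.70-fold higher signal in F98902, with a 95% interval of 4.39-fold to 13.5-fold (limma adjusted p = 0.00214). Among all probe sets tested, 5.80% had a difference of this size or larger. The Cm484 values lay just above the detection value, where the size of a fold depends on the background correction.

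RR11 (LOC541613, probe set Zm.51.1.A1_at), also named crr1 for cytokinin response regulator, followed in size. It read 8.31 and 8.96 in F98902, against 6.34 and 6.65 in Cm484, all 4 values being above the detection value. The nearest values of the lines were 1.66 apart, and replicates differed by at most 0.65. RR11 was higher in F98902 by 2.14 ± 0.27 (SE), or 4.40-fold with a 95% interval of 2.75-fold to 7.05-fold (limma adjusted p = 0.0035). RR6 and RR11 were called under all 10 alternative settings tried, with differences of 2.53 to 3.36 for RR6 and of 1.81 to 2.46 for RR11.

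RR4 (LOC541630), a type-A gene with 2 probe sets, gave a call from 1 of them. Probe set Zm.10670.1.A1_at read 5.88 and 6.88 in F98902, against 5.09 and 4.74 in Cm484. The lines did not overlap, but the nearest values were 0.79 apart and the F98902 replicates themselves 0.99 apart. The difference was 1.46 ± 0.36 (SE, limma adjusted p = 0.0301). No fold is given, because 1 of the 2 Cm484 arrays lay under the detection value. Because F98902 alone carried this probe set through the filter, and the Cm484 mean of 4.92 lies under the detection value, the size of the difference is not measured exactly and the filter favours this direction. Its call was lost without F98902 replicate 2 (difference 0.97, limma adjusted p = 0.0574), without Cm484 replicate 1 (adjusted p = 0.0795) and without Cm484 replicate 2 (adjusted p = 0.121).

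The other RR4 probe set, Zm.323.1.S1_at, read 4.67 and 4.68 in F98902, against 4.33 and 5.01 in Cm484. It was detected on 1 of 4 arrays, the lines overlapped, and it was not tested. The probe sets of this gene thus disagree: the measured mean difference of Zm.323.1.S1_at was 0.00, from values near or below the detection value.

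RR7 (LOC541633, probe set Zm.326.1.S1_at) differed the other way and was the 1 member called as higher in Cm484. This type-A gene read 5.70 and 6.37 in F98902, against 6.99 and 7.18 in Cm484. The F98902 arrays lay below both Cm484 arrays, with 0.62 between the nearest values and 0.68 between the F98902 replicates. The difference of -1.05 ± 0.26 (SE) corresponds to 2.07-fold higher signal in Cm484, with a 95% interval of 1.31-fold to 3.29-fold (limma adjusted p = 0.032). The call was lost without F98902 replicate 1 (difference -0.72, adjusted p = 0.0761), without Cm484 replicate 1 (adjusted p = 0.092) and without Cm484 replicate 2 (adjusted p = 0.124). The direction was the same in each of these fits.

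RR5 (LOC541631, probe set Zm.13810.1.S1_at) was the type-A probe set tested and not called. It read 7.60 and 8.43 in F98902, against 8.25 and 8.61 in Cm484, so that the lines overlapped. The difference was -0.41 ± 0.32 (SE, limma adjusted p = 0.363), with a 95% interval of -1.21 to 0.38. This interval still holds differences of 2-fold in the direction of Cm484.

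RR3 (LOC541629, probe set Zm.287.1.S1_at) is the gene abph1, a type-A regulator whose loss changes the arrangement of leaves on the maize stem. It was not detected in either line. Its values were 2.25 and 2.29 in F98902, against 2.29 and 2.24 in Cm484. These lie far under the detection value, and no level or fold can be read from them.

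**Figure D2:**
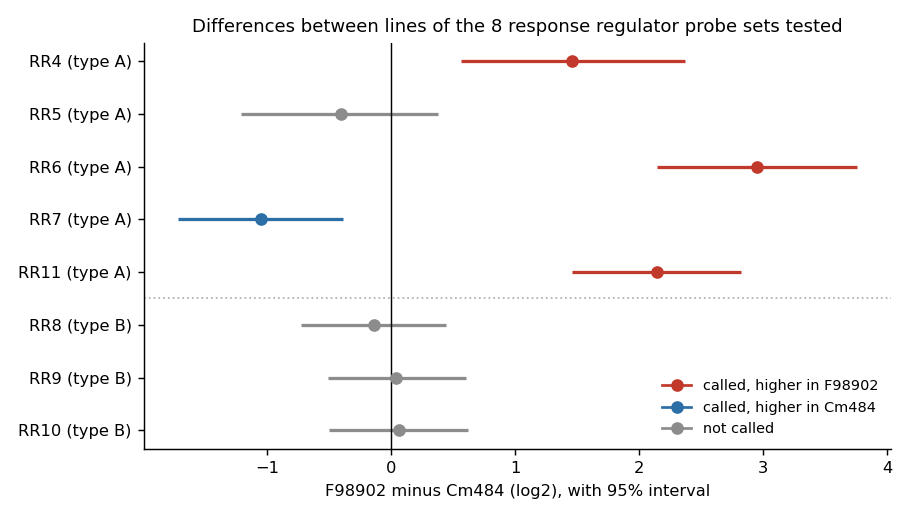
Difference between lines (F98902 minus Cm484, log2, horizontal axis) with its 95% interval from the limma fit, for the 8 response regulator probe sets tested, type A above the dotted line and type B below it. RR6, RR11 and RR4 lie to the right of 0 and RR7 to the left, while RR5 and the 3 type-B intervals, between -0.73 and 0.62, include 0.

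The type-B regulators RR8, RR9 and RR10, which act as transcription factors of the pathway, were detected on all 4 arrays and differed little. Their absolute differences ranged from 0.04 to 0.14, against 0.41 to 2.95 for the 5 type-A probe sets. RR8 (LOC541636, Zm.361.1.A1_at) read 7.31 and 7.35 in F98902, against 7.19 and 7.75 in Cm484. Its difference was -0.14 ± 0.23 (SE, limma adjusted p = 0.67). RR9 (LOC541638, Zm.365.1.A1_at) read 8.43 and 8.44 in F98902, against 8.13 and 8.65 in Cm484, with a difference of 0.04 ± 0.22 (SE, limma adjusted p = 0.897).

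For each of the 2, the F98902 values fell between the Cm484 values. RR10 (LOC541639, Zm.5932.1.S1_at) read 6.27 and 5.97 in F98902, against 5.84 and 6.28 in Cm484, and its lines also overlapped. Its difference was 0.06 ± 0.22 (SE, limma adjusted p = 0.856). The 95% intervals were -0.73 to 0.44 for RR8, -0.51 to 0.60 for RR9 and -0.50 to 0.62 for RR10. A 2-fold difference in either direction thus lay outside each interval, while smaller ones within these bounds did not. In all, 4 of the 8 members tested had values that did not overlap between lines, against 72% of all probe sets tested.

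The 5 type-A probe sets tested also shared a gap between the F98902 replicates. Replicate 2 lay above replicate 1 by 0.99 for RR4, 0.83 for RR5, 0.82 for RR6, 0.68 for RR7 and 0.65 for RR11. For the type-A probe sets not tested it was 0.03 for RR3 and 0.01 for the second probe set of RR4. Both lay under the detection value in F98902, so whether they share the gap cannot be read. The same gap was 0.03 for RR8, 0.01 for RR9 and -0.30 for RR10. A gap of 0.5 or more in this direction was present for 5 of the 8 members and for 6.03% of all probe sets tested, whose 95th percentile was 0.54. In Cm484, replicate 2 minus replicate 1 ranged from -0.35 to 0.41 for the type-A probe sets and from 0.44 to 0.56 for type B. There 2 of 8 members and 9.02% of all probe sets reached 0.5. This pattern was chosen after its values were seen.

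The 2 F98902 arrays also differed in their controls. The labels give 120.7 ng of RNA for replicate 2 and between 312.4 and 416.8 ng for the other samples. Over 5 detected control probe sets for 5′ ends of housekeeping genes, the median deviation from the mean of the other arrays was 0.86 (log2) for F98902 replicate 1 and -0.83 for replicate 2. It was 0.26 and -0.22 for Cm484 replicates 1 and 2. Over 5 control probe sets for 3′ ends the F98902 arrays deviated by 0.12 and 0.00, and the Cm484 arrays by -0.04 and -0.13. The part of RNA amount or quality in the gap was not tested. Without F98902 replicate 2 the differences were 2.53 for RR6, 1.81 for RR11, 0.97 for RR4 and -1.39 for RR7, and RR6, RR11 and RR7 were still called (limma adjusted p = 0.00596, 0.0108 and 0.0165). RR5, at -0.83 without it, was not called (adjusted p = 0.0844).

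**Figure D3:**
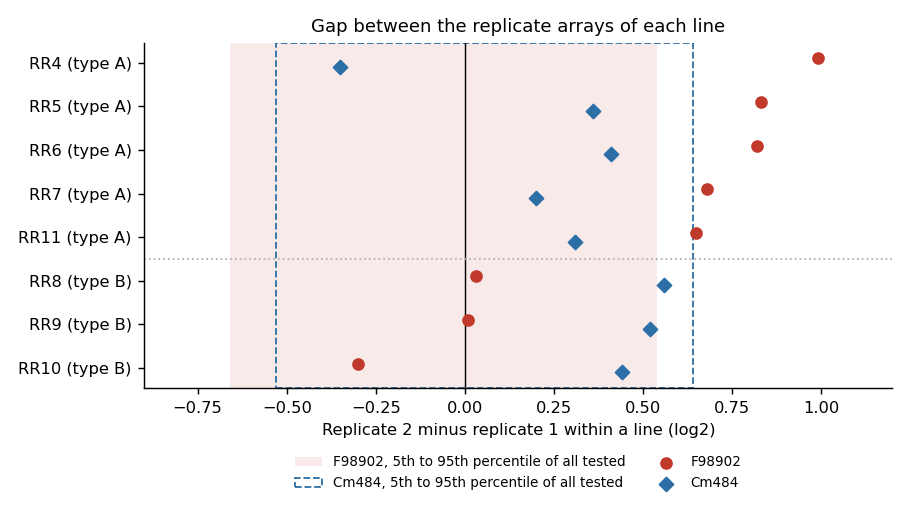
Replicate 2 minus replicate 1 (log2, horizontal axis) within F98902 (circles) and within Cm484 (diamonds) for the 8 response regulator probe sets tested. The shaded band and the dashed box give the 5th to 95th percentile of the same gap over all 10131 probe sets tested, and the 5 type-A circles, from 0.65 to 0.99, lie beyond the band that ends at 0.54.

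Another gene with a crr symbol, as RR11 has, lies just outside the naming rule. The gene crr2 (LOC541624, Zm.222.1.S1_at), read 6.31 and 6.17 in F98902, against 6.34 and 7.17 in Cm484. Its difference was -0.51 ± 0.30 (SE, limma adjusted p = 0.245), and its F98902 replicates differed by -0.14. It was thus not called and did not share the replicate gap of the type-A members tested. No type was assigned to crr2 here, so the type-A counts and ranges leave it out. Probe sequences were not used here, so cross-hybridisation between related regulators was not tested.

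Among other cytokinin pathway genes, a receptor gene and a beta-glucosidase gene were called as higher in Cm484. This list held 15 probe sets, of which 11 were tested. By limma 2 were called as higher in Cm484 and 0 as higher in F98902, where 1 had an unadjusted p under 0.05. The 2 calls are 18.2% of the 11, below the 34.9% of all probe sets called. The median difference of the 11 was -0.23. The receptor gene hk3 (LOC541642) read 6.09 and 6.06 in F98902, against 7.26 and 7.18 in Cm484, 2.21-fold higher in Cm484 (limma adjusted p = 0.00424). The receptor genes HK1 and hk2 and the phosphotransfer genes HP1, hp2 and HP3 were detected on all arrays and not called, with adjusted p between 0.106 and 0.687.

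The second call was glu1 (LOC542414), a beta-glucosidase able to release cytokinin from its glucosides. It read 2.48 and 2.54 in F98902, below detection, against 6.91 and 5.49 in Cm484, at least 2.29-fold higher in Cm484 (limma adjusted p = 0.00356). The Cm484 replicates differed by 1.42, so this bound depends on the array. It passed the filter through Cm484 alone, so a call could go in that direction only. The cytokinin oxidase genes cko2 and cko3, whose products degrade the hormone, were not called (adjusted p = 0.575 and 0.849). The homeobox genes kn1 and knox7 were not called either, with adjusted p of 0.412 and 0.0543. Below detection on all arrays were cko1, glu2, ciszog1 and a second probe set of cko3.

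**Figure D4:**
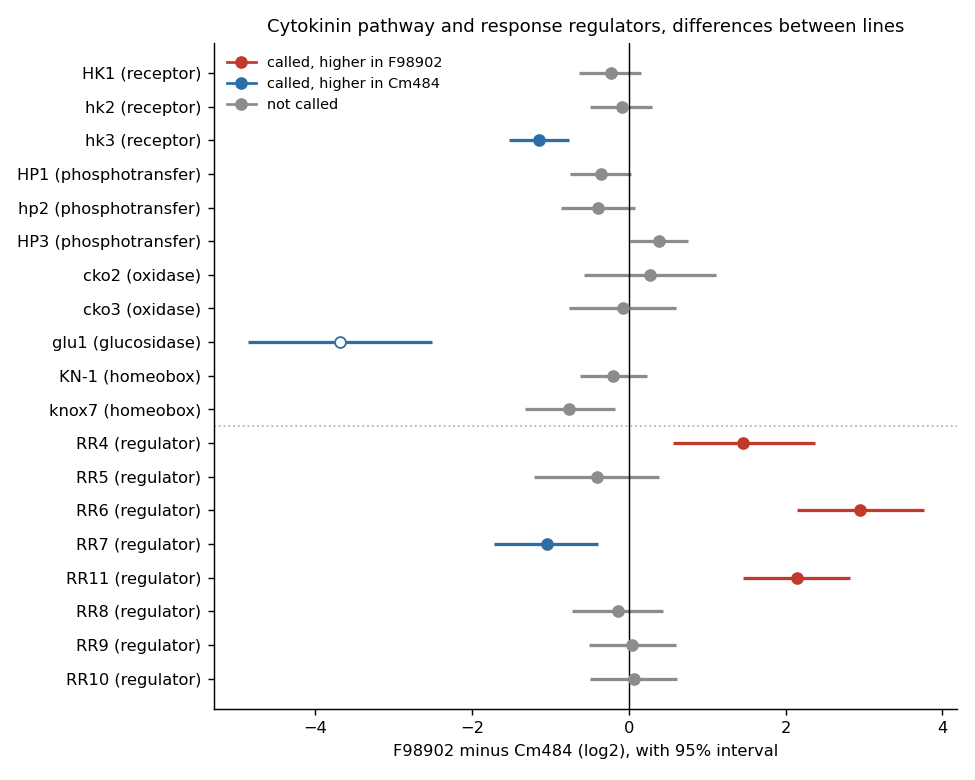
Difference between lines (F98902 minus Cm484, log2, horizontal axis) with its 95% interval from the limma fit, for the 11 other cytokinin pathway probe sets tested (above the dotted line) and the 8 response regulator probe sets (below it). The open circle marks glu1, below detection in F98902, whose plotted difference is not a measured size, and KN-1 is the gene kn1. Receptor hk3 and glu1 lie to the left of 0 with RR7, and RR6, RR11 and RR4 to the right.

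Because maize response regulators are known to respond to nitrate, genes of nitrate reduction and ammonium assimilation were counted beside them. Of 19 probe sets, 9 were tested and 4 called, 2 in each direction, with a median difference of -0.45. Their share of 44.4% is near the 34.9% of all probe sets called. The nitrite reductase gene NIR (LOC542264) was 3.54-fold higher in F98902 (limma adjusted p = 0.00558). The gene nar, a nitrate reductase name, was at least 4.20-fold higher there (limma adjusted p = 0.00222). A second probe set of NIR, a second of nar and both of NR lay below detection on all arrays. NNR1 (LOC542278), listed with nar by its name, was not called, at -0.45 (limma adjusted p = 0.109). Of the glutamine synthetase genes, gln2 (LOC542400) was 3.97-fold higher in Cm484 (limma adjusted p = 0.000869). The gene gln3 (LOC542215) was at least 9.47-fold higher in Cm484 (limma adjusted p = 0.000116). Not called were gln1, at 0.79 and so toward F98902, Gln1-4 at -0.63 and GLN6 at -0.61 (limma adjusted p = 0.0566, 0.0556 and 0.19). The called probe sets of nar and gln3 were detected in 1 line alone and passed the filter through it, so only that direction was possible for them. The called nar probe set read 6.47 and 7.68 on F98902 replicates 1 and 2, a gap of 1.21 in the direction of the type-A gaps. The other nitrogen probe sets tested had F98902 gaps between -0.44 (gdh1) and 0.32 (Gln1-4), with -0.19 for NIR. A gap of 0.5 or more in that direction was present for 6.03% of all probe sets tested.

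The named genes most like each member were found by the Euclidean distance between the 4 array values after centring each on its mean, among 889 probe sets with 1 annotated gene. With 4 arrays this is a description of these samples. For RR6 the nearest were the unnamed locus LOC542342 (distance 0.11) and UGlcAE (LOC732831, 0.22), named for a UDP-glucuronate epimerase. For RR11 they were the small heat shock gene HSP18 (LOC542293, 0.14) and AGP2 (LOC542737, 0.22). RR4 was nearest to bt2 (LOC541902), a starch synthesis gene, at 0.51, and to TCTP at 0.61, the widest of these distances.

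RR7 was nearest to pk8-a (LOC732721, 0.25) and LOC541692 (0.28), and RR5 to the homeobox gene Hox2b (LOC542536, 0.19) and orc4 (LOC541939, 0.21). Nearest to the type-B members were MYB38_1 (0.10) and LOC541824 (0.11) for RR8. For RR9 they were SRP2B (0.09) and drh1 (0.12), and for RR10 LOC542628 (0.09) and LOC732737 (0.11). The type-B members themselves varied little over the arrays. No response regulator was among the nearest of another one.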

How the data were processed

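The authors deposited log2 values of 17734 probe sets on 4 arrays, made with GCRMA in R 2.6.2, per the submitters' processing notes. GCRMA corrects for background, scales arrays to each other and gives 1 value per probe set, and its low values are imprecise. Further steps were not stated. The log2 values were used as deposited, without the 113 Affymetrix control probe sets. The array annotation names 1 gene for 1452 probe sets (1108 genes). Gene identifiers led to current names in the RefSeq table of Zm-B73-REFERENCE-NAM-5.0, which holds 1060 of these genes. No sequences and no coordinates were used.

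Probe sets at 5 or more on at least 2 arrays were fitted in R 4.3.3 by lmFit and eBayes of limma 3.58.1, without covariates. The fit had 2 residual and 3.26 prior degrees of freedom, tests were two-sided, and p-values were adjusted (Benjamini-Hochberg) over the 10131 kept. Where neither array of a line reached 5, its level was taken as at most 5 and the fold is a bound. The steps were tested on simulated data. Members and lists were chosen with earlier results of these data known. Every member is named, as are the called genes of the other cytokinin, nitrogen and ethylene lists and the 2 with the smallest p, and the 2 nearest named genes of each member. Alternatives were other filters, scalings, a variance trend, a replicate block and each array left out. The number of arrays limits the precision.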

Additional observations from a re-analysis of the deposited data

How the results depend on the processing

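RR6 and RR11 kept their direction and their call under all 10 alternatives. The calls of RR4 and RR7 were also lost with no filter (limma adjusted p = 0.114 and 0.101), which left 2 response regulator calls. The differences of RR4 and RR7 stayed at 1.46 and -1.05, with SE of 0.41 and 0.28 against 0.36 and 0.26 with the filter. The part of the SE and of the wider adjustment in this loss was not tested. The number of response regulator calls ranged from 2 to 3 with 1 array left out, that of all probe sets from 2205 to 2706, and that of the ethylene list, 1 in the full fit, from 0 to 1. The ethylene list also fell to 0 with no filter. With no filter, 17621 probe sets entered the adjustment. The uncalled type-B differences changed sign in some fits: with 1 array left out they ranged from -0.43 to 0.14 for RR8 (0.14 without Cm484 replicate 2), from -0.22 to 0.30 for RR9 (-0.22 without Cm484 replicate 1) and from -0.16 to 0.28 for RR10 (-0.09 without F98902 replicate 1 and -0.16 without Cm484 replicate 1). RR9 also changed sign under median centring (-0.01). RR4 gave no value at the filter of 6. With the replicate number as a block, 4 response regulator probe sets were called, as without it, and 2983 of all probe sets. Deviations of same-numbered arrays correlated at -0.024, so the numbers are not taken as pairs.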

Other observations

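Ethylene receptors are related to the histidine kinases of the cytokinin phosphorelay. Of 4 ethylene pathway probe sets, 3 were tested and 1 was called, a share of 33.3% against 34.9% of all probe sets tested. The receptor gene etr2 (LOC541627) read 8.82 and 8.92 in F98902, against 7.84 and 8.25 in Cm484, 1.77-fold higher in F98902 (limma adjusted p = 0.0285). The list had 0 calls with no filter, and also with either F98902 array or Cm484 replicate 1 removed. The genes acco20 (LOC542137) and ACO31 (LOC542136), named for the last enzyme of ethylene synthesis, were not called (adjusted p = 0.157 and 0.885). A second etr2 probe set was below detection on all arrays.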
